A study of Mus musculus with 2 samples.

Results

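The 10 genes Nipbl, Mau2, Wapl, Pds5a, Pds5b, Esco1, Esco2, Sgo1, Sgo2a and Hdac8 encode the factors that load cohesin on chromatin, release it, acetylate or deacetylate it and protect it. They were taken by name from 21887 RefSeq protein-coding genes on GRCm38, and all 10 were found. Chromatin accessibility was measured by ATAC-seq, in which the Tn5 transposase cuts and tags open DNA, in mouse Stag3 KO GSCs of the line labelled Acrosin-EGFP; beta-Actin-EGFP (AAG). Both libraries, replicates 1 and 2, had that genotype, and each was made from 50000 viable cells sorted as AAG-positive. The wild-type cells named in the design text were not analysed here, so no value is a difference caused by the loss of Stag3, a subunit of the cohesin ring. Whether the replicates are separate cultures, and whether the line is 1 clone, is not stated in the labels, and differences between replicates may therefore be technical only.

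Cohesin is a ring that holds sister chromatids together and extrudes chromatin loops. NIPBL and MAU2 form the complex that loads the ring and drives its ATPase. WAPL, bound to PDS5A or PDS5B, opens the ring and takes it off chromatin, while PDS5 proteins also help to establish cohesion. ESCO1 and ESCO2 acetylate the SMC3 subunit, which makes cohesin resistant to WAPL, and HDAC8 removes that mark so that the ring can be used again. Shugoshins, encoded by Sgo1 and Sgo2a, bring a phosphatase to centromeres and keep cohesin there, SGO1 in mitosis and the mouse SGO2 protein in meiosis, when germ cells must hold sister centromeres together through the first division.

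A locus was the gene model with 50 kb on each side, and a shared region was a replicate 1 peak joined with the replicate 2 peak that overlapped it by 1 bp or more. The 10 loci held 85 shared regions, of which 31 had their summit inside the gene of the locus (36.5%, 95% Wilson interval 27.03 to 47.1, counting error only), while the gene models made up 45.8% of the loci. Fold enrichment, the authors' ratio of summit signal over local background, ran between 2.71 and 31.96 in these regions. The median was 9.61 in replicate 1 and 9.28 in replicate 2, against 10.9 and 10.6 over all 83732 shared regions. The region nearest to the 50 kb limit from inside lay 49091 bp from Pds5a, with 4.37-fold and 8.37-fold, and the first beyond it lay 50208 bp from the same gene, with 10.2-fold and 7.17-fold.

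By place, 9 of the 85 regions lay within 1000 bp of a start site of the gene itself, 1 lay at its 3′ end and 3 lay at an end of a gene whose strand was not given in the tables used. Another 23 lay inside the gene, 15 at the end of another gene and 34 in the flanks away from any gene end, 20 of these inside the model of a neighbour. The 9 regions at start sites were mostly strong, with a median of 17.1-fold and 211 summit tags in replicate 1 and 19.2-fold and 219 tags in replicate 2. The exceptions, with 2.83-fold and 5.14-fold and with 4.17-fold and 3.63-fold, stood beside stronger regions at the Pds5a and Pds5b starts. The 23 internal regions had medians of 7.21-fold and 43 tags, and 6.72-fold and 30 tags. Of these 23, 12 were in Nipbl, whose start site was not given. The 34 flank regions had medians of 7.96-fold and 43.5 tags in replicate 1, and 8.64-fold and 48 tags in replicate 2. Internal sites were therefore mostly weak, as were flank sites, but the strongest internal sites reached the level of start sites.

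**Figure D1:**
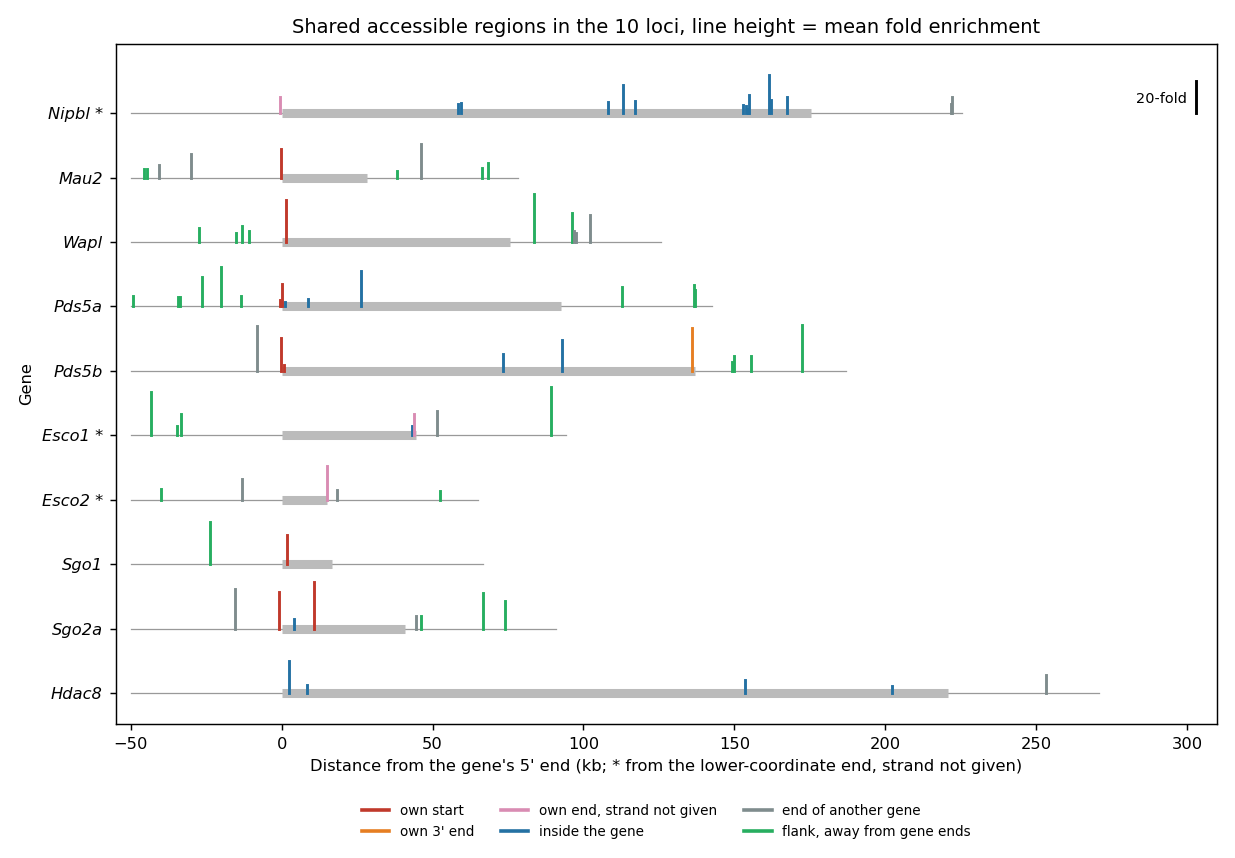
Shared accessible regions along the 10 loci, plotted by distance from the 5′ end of the gene (kb), or from the lower-coordinate end for the 3 genes marked with an asterisk. Grey bars are gene models, line height is the mean fold of both libraries and colour gives the position; Mau2, Wapl and Esco2 show no internal line away from their ends.

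Shared regions reached the start of most of the genes, or an end where no strand was given. Of 7 members with a known strand, 5 had a shared region within 1000 bp of the 5′ end of the gene model, against 62.5% of the 17492 protein-coding genes with a strand. With the RefSeq start sites of the promoter table in their place, a definition added after the data were seen, the count was 6 of 7, against 65.9% of the genes in that table. The 3 members without a strand, Nipbl, Esco1 and Esco2, all had a region at 1 of their gene ends, as did 67.2% of such genes. These shares are near the background and are no result particular to the 10 genes. The strongest region of the locus lay at the gene's own start or end in 2 of 10 members, Esco2 and Sgo2a, against 17.2% of genes with any region.

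The 9 RefSeq promoter windows of the 7 genes are printed with each gene, because covered and uncovered start sites differed in what they held. A window is 300 bases, of which 250 lie before the start site, as given by RefSeq on GRCm38.p6, and is written 5′ to 3′ on the gene's strand. Capitals mark matches on either strand to the motifs searched.

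The loader genes differed in where their strong sites lay. Nipbl, on chromosome 15 at 8289824 to 8465315, had 15 shared regions, the most of the 10 genes, and 12 of them had their summit inside its 175 kb model. The strongest, chr15:8451093-8451469, had 24.1-fold in replicate 1 and 23.4-fold in replicate 2, with 189 and 170 tags. It lay 13846 bp inside the higher-coordinate end and was followed by chr15:8402704-8403048, in mid-gene, with 18.2-fold and 16.3-fold. Both libraries thus placed the strongest Nipbl sites inside the gene model.

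A run of 4 Nipbl regions between 8442608 and 8444862 stood on a high background. Their tags ran from 37 and 44 at the weakest to 144 and 188 at the strongest. The strongest, chr15:8444513-8444862, had fewer tags than the top region in replicate 1 (144 against 189) and more in replicate 2 (188 against 170). Its fold was lower in both libraries, 10.3 and 12.3, on a local background of 13.0 and 14.4 tags. Each of the 4 lay inside LOC102634078, a protein-coding model placed wholly within Nipbl. The gene-end region of Nipbl, chr15:8289110-8289712, lay 112 bp outside the lower-coordinate end with 8.78-fold and 10.8-fold on 27 and 36 tags. It ranked 5 of 15 in its locus, so the call at the Nipbl end rested on a site of middling fold. With no strand or start site given, whether this end or another site holds the Nipbl start is not known here. At the other end, a replicate 2 peak of 4.8-fold on 14 tags had no partner in replicate 1. Beyond that end, the lncRNA gene Gm49249 had regions at an end, the stronger with 10.4-fold and 9.60-fold.

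Mau2, on chromosome 8 at 70014527 to 70042734 on the minus strand, had 9 shared regions and no summit inside its model. Its count was 14 in replicate 1 alone and 10 in replicate 2 alone. Its outer start site was covered by chr8:70042588-70043255, with 17.1-fold and 18.9-fold and 220 and 260 tags. The start of Sugp1, which runs the other way, lies 35 bp from that of Mau2, so the region covers both genes and cannot be assigned to 1 of them. A second RefSeq start site of Mau2, at 70029513 inside the gene, had its nearest shared region 13075 bp away. The covered window held 21 CpG dinucleotides and the internal one held 1. Their sequences follow, on the minus strand of GRCm38.p6 from RefSeq.
Mau2 outer start, chr8:70042685-70042984: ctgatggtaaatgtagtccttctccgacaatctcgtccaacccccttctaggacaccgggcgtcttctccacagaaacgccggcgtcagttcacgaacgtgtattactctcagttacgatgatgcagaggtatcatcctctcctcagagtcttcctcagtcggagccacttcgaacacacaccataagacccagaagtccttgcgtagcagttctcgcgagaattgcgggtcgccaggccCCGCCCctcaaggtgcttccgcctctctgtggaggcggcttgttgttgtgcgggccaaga
Mau2 internal start, chr8:70029464-70029763: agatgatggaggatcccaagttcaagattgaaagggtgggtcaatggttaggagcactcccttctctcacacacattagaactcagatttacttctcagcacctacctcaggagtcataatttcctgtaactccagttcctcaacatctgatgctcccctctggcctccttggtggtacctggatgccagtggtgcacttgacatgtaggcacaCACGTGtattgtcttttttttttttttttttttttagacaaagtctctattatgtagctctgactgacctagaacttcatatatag

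The strongest region of the Mau2 locus belonged to the neighbourhood and not to the gene. It was chr8:69996108-69996835, at the start of Gatad2a, a subunit gene of the NuRD chromatin remodelling complex, with 20.7-fold and 21.4-fold. Its 519 and 594 tags were the highest of all 85 regions. Further regions lay at the ends of Sugp1 and Tm6sf2, with 15.9-fold and 12.7-fold, and at the end of Hapln4, with 7.46-fold and 8.27-fold. In the Mau2 locus, then, each region above the median fold of both libraries lay at the end of at least 1 gene other than Mau2.

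Among the release genes, Wapl had its strong sites at the start and beyond the 3′ end, with no shared region between them. Wapl lies on chromosome 14 at 34672379 to 34747983 on the plus strand. The region chr14:34673353-34674129 covered its RefSeq start site at 34673928, with 25.9-fold in each library and 325 and 357 tags. It reached the window of 1000 bp around the model's 5′ end by its edge alone, 974 bp away, so that the call by gene model was marginal and the call by start site was not. The lncRNA gene 5830448L01Rik overlaps that start on the other strand. The promoter window, on the plus strand of GRCm38.p6, was covered in full and held 35 CpG dinucleotides.
Wapl start, chr14:34673678-34673977: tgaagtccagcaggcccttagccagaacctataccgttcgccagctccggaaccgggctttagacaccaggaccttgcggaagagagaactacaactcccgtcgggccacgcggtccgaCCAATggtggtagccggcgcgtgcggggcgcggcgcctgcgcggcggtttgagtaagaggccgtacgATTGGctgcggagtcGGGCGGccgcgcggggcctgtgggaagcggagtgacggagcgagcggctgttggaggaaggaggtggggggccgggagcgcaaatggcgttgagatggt

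The strongest Wapl region lay outside the gene, at chr14:34755698-34756226, 7715 bp beyond the 3′ end and away from any annotated gene end. It had 30.4-fold and 29.1-fold and held 345 and 316 tags, near the tags of the start site itself. A further group began 20395 bp beyond the gene, around the lncRNA genes A930038B10Rik and Gm30969. It was led by chr14:34768378-34768744 with 18.0-fold and 17.8-fold and chr14:34774325-34774673 with 19.5-fold and 14.6-fold. The 75.6 kb Wapl model held away from its start only a replicate 1 peak of 3.76-fold and, elsewhere, a replicate 2 peak of 5.12-fold. The locus had 10 shared regions and 16 peaks in each library alone.

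Pds5a, on chromosome 5 at 65605719 to 65698236 on the minus strand, had 14 shared regions, or 13 when a pair that shares a replicate 2 peak is counted once. Its start site was covered by chr5:65697589-65698415, with 14.3-fold and 13.2-fold and 131 and 136 tags. Sites of higher fold lay on both sides, on lower backgrounds and with tags near those of the start. Inside the gene, 25994 bp from the start, chr5:65671919-65672242 had 25.2-fold and 18.2-fold on 132 and 109 tags. Upstream, chr5:65718207-65718670 had 22.5-fold and 26.2-fold on 108 and 152 tags. Further upstream, chr5:65724219-65725105 had 19.3-fold and 16.9-fold on 120 and 139 tags. No gene model lay at the summits of these upstream regions. By fold, the start thus ranked 4 of 14 in its own locus. Its promoter was the richest in CpG of the 9 windows, with 55 in 300 bases, and held 3 matches to the E2F motif, of which 2 overlap in a palindrome.
Pds5a start, chr5:65698187-65698486, minus strand: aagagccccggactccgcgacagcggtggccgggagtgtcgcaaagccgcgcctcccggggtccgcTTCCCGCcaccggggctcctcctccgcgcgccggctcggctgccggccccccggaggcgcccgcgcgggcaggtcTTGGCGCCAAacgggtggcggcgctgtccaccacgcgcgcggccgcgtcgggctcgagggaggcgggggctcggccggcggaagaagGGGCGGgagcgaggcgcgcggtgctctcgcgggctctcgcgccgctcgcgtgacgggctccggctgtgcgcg

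Pds5b, on chromosome 5 at 150673713 to 150810669 on the plus strand, had 10 shared regions, 7 of them above the median fold of both libraries. Its start site was covered by chr5:150673380-150673923, with 19.9-fold and 20.8-fold and 236 and 229 tags. That start also lies inside Gm40353, another protein-coding model on the same strand. With strand known, its stronger gene-end region, chr5:150809496-150809853 with 25.6-fold and 27.8-fold, was placed at the 3′ end, 816 bp inside the model. The 3′ site held fewer tags, 125 and 160, on a lower background of 3.92 and 4.8 tags against 10.9 and 10.04 tags at the start. Fold and tags therefore ranked these sites in opposite orders. The Pds5b window held 41 CpG dinucleotides, 3 GC boxes, 2 CCAAT boxes and 1 E2F match.
Pds5b start, chr5:150673577-150673876, plus strand: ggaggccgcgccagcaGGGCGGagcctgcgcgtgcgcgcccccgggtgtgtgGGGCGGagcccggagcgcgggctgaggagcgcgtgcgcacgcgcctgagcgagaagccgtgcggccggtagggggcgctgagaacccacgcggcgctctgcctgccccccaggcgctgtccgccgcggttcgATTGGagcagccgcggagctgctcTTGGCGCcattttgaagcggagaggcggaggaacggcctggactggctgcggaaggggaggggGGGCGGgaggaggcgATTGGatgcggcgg

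The 2 internal Pds5b regions lay far from either end, at chr5:150766321-150766654 with 19.8-fold and 18.9-fold and chr5:150746891-150747211 with 11.9-fold and 9.28-fold. Outside the gene, chr5:150845996-150846344, 35327 bp beyond the 3′ end and inside the lncRNA gene Gm36447, had 27-fold and 30.4-fold. The region at the start of N4bp2l2, 7676 bp upstream, had 28.7-fold and 27.1-fold and held 492 and 537 tags. The paralogues thus shared covered start sites and strong sites inside and outside the gene, and the difference between them was not tested.

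The acetyltransferase genes each had 1 region at a gene end. Esco1, on chromosome 18 at 10566507 to 10610863, had 7 shared regions. Its gene-end region, at 10609954 to 10610672, stood 191 bp inside the higher-coordinate end, with 12.2-fold and 14.7-fold and 137 and 165 tags. The regions of highest fold in the locus lay in neighbouring genes. One inside Abhd3, at 10655623 to 10656010, had 27.5-fold and 31.96-fold, the highest fold of the 85 regions in replicate 2. Its 122 and 162 tags were fewer than those of the gene-end region. One inside Greb1l, at 10523135 to 10523574, had 24.8-fold and 29.3-fold on 159 and 176 tags, more than the gene-end region. The region at the end of Snrpd1, 6550 bp from Esco1, had 14.5-fold and 15.9-fold.

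Esco2, on chromosome 14 at 65819027 to 65833969, is the shortest of the 10 genes and had 5 shared regions. Its own end region, chr14:65833747-65834284, was the strongest of the locus, with 20.4-fold and 21.8-fold and 259 and 341 tags. The next, at the end of the kinase gene Pbk, had 13.1-fold in each library and 52 tags in each. The region at the end of Ccdc25, 3215 bp away, had 6.81-fold and 5.70-fold on 87 and 89 tags. No shared region lay inside Esco2 away from its ends, so accessibility at this gene was a single strong site. No promoter entry was used for Nipbl, Esco1 or Esco2.

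Hdac8, the deacetylase gene, was the 1 member in the promoter table with no shared region at its start. It lies on chromosome X at 102284638 to 102505381 on the minus strand and, at 221 kb, is the longest of the 10 genes. At its RefSeq start site, 102505158, replicate 1 had a peak of 3.62-fold on 33 tags, at 102505031 to 102505236. Replicate 2 had one of 4.23-fold on 42 tags, at 102505316 to 102505520, which did not overlap it. Both stood at low percentiles of their libraries, 3.12 and 8.40. The strongest Hdac8 region, chrX:102502749-102503299, lay 1859 bp downstream of the start site, with 19.0-fold and 21.3-fold and 173 and 212 tags. The strongest open site of Hdac8 was thus inside the gene, beside weaker peaks at the start that the libraries did not share. The strongest site also lay within the lncRNA model Gm32262, which covers nearly the whole gene on the other strand. The start window held 6 CpG dinucleotides and no GC box, and its 2 CCAAT matches overlap.
Hdac8 start, chrX:102505109-102505408, minus strand: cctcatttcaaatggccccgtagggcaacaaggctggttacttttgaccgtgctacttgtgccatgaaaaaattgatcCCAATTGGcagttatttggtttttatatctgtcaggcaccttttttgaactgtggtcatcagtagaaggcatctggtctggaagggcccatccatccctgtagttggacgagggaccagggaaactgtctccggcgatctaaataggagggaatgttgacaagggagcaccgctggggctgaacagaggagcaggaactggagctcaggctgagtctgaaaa

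The rest of Hdac8 was sparse. Its other internal regions had 9.72-fold and 7.04-fold, 5.64-fold and 4.8-fold, and 4.39-fold and 4.16-fold, on 12 to 30 tags. Its locus had 1.56 shared regions per 100 kb, the lowest of the 10. The remaining region lay at the start of Cited1, 32325 bp from Hdac8, with 8.92-fold and 13.6-fold. It also lay within 1000 bp of the start of the lncRNA gene Gm14858.

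Both shugoshin genes had a strong region over a RefSeq start site inside the gene model. Sgo1, on chromosome 17 at 53674786 to 53691331 on the minus strand, had 2 shared regions, the fewest of the 10. The first, chr17:53688975-53689925, covered its RefSeq start site at 53689315, with 17.1-fold and 19.2-fold and 215 and 263 tags. That start lies inside the gene model, so the window around the model's 5′ end missed it. The region also lay within 1000 bp of an end of the pseudogene Gm31532. The second, chr17:53714835-53715479, lay 23504 bp upstream of the model with 25.2-fold and 26.98-fold and 135 tags in each library. The locus also had 3 weak peaks of a single library, 1 in replicate 1 and 2 in replicate 2, so that replicate 2 alone gave 4 sites in place of 2. Its promoter held 2 E-box matches, a GC box, an ETS match and a CCAAT box.
Sgo1 start, chr17:53689266-53689565, minus strand: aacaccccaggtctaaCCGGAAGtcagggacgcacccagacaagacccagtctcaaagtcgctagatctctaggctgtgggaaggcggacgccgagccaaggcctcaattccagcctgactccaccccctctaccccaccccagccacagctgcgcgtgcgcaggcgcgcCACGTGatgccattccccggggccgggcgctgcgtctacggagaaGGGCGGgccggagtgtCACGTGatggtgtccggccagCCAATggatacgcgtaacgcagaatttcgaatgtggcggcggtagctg

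Sgo2a, on chromosome 1 at 57985340 to 58026277 on the plus strand, had 8 shared regions and 2 RefSeq start sites that differed in accessibility. The internal start, at 57995974, was covered by chr1:57995711-57996532, with 29.8-fold and 28.5-fold and 211 and 219 tags. This was the strongest region of the locus, with its summit 37 bp upstream of the start site. The outer start, at 57985340, had no shared region in its promoter window. The nearest, chr1:57984195-57984625, ended 715 bp upstream of it, with 20.6-fold and 25.2-fold and 127 and 109 tags. At Sgo2a, then, the covered start was the internal one, and the gene-end call rested on a separate site upstream.
Sgo2a internal start, chr1:57995724-57996023, plus strand: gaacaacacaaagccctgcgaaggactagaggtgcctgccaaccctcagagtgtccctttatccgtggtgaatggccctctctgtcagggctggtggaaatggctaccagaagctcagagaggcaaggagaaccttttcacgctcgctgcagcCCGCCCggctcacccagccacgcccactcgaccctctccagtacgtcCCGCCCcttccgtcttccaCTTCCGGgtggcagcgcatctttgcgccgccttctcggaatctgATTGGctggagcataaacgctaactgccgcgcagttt
Sgo2a outer start, chr1:57985090-57985389, plus strand: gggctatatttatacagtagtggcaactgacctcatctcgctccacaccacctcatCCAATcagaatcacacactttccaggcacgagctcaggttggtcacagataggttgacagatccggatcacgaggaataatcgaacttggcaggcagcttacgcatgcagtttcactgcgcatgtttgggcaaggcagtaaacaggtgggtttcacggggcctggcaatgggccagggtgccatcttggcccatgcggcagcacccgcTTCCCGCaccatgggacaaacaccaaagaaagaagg

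The internal Sgo2a window held 19 CpG dinucleotides, 2 GC boxes, an ETS match and a CCAAT box. The outer one held 11 CpG dinucleotides, no GC box, 1 CCAAT box and 1 E2F match. Elsewhere in the locus, the region at the start of Kctd18 had 24.9-fold and 24.8-fold. Inside Aox1, downstream of Sgo2a, chr1:58051990-58052379 had 21.0-fold and 23-fold and chr1:58059194-58059693 had 18.2-fold and 16.0-fold. A region of 823 bp inside Sgo2a, chr1:57988900-57989722, joined peaks whose summits stood 508 bp apart, so its 45 and 17 tags describe separate points.

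Across the 9 RefSeq promoter windows of the 7 genes, the 6 that a shared region overlapped were also the 6 with a GC box, and the 3 others had none. Among these 3, the Hdac8 window was overlapped by a weak peak of each library, of 3.62-fold and 4.23-fold. Those peaks did not overlap each other, so the split depends on the rule for a shared region. The GC box (GGGCGG) stood in 35.7% of all 32851 promoters of the table, in 65.2% of those with a shared region and in 11.7% of those without. CCAAT was found in 6 of 9 windows and 37.4% of all, E2F motifs (TTCCCGC or TTGGCGC) in 3 of 9 and 6.81%, the E-box CACGTG in 2 of 9 and 7.15%, and the ETS motif CCGGAAG in 2 of 9 and 8.86%. Among promoters with a shared region, the shares were 37.6% for CCAAT, 12.4% for E2F, 10.2% for the E-box and 16.6% for ETS. The NRF1 core GCATGCGC, the cyclic AMP response element TGACGTCA and the YY1 motif AAGATGGCG were in none of the 9 and in 2.71%, 1.79% and 1.40% of all. Both strands were searched, and matches are letters in a window, not bound sites.

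**Figure D2:**
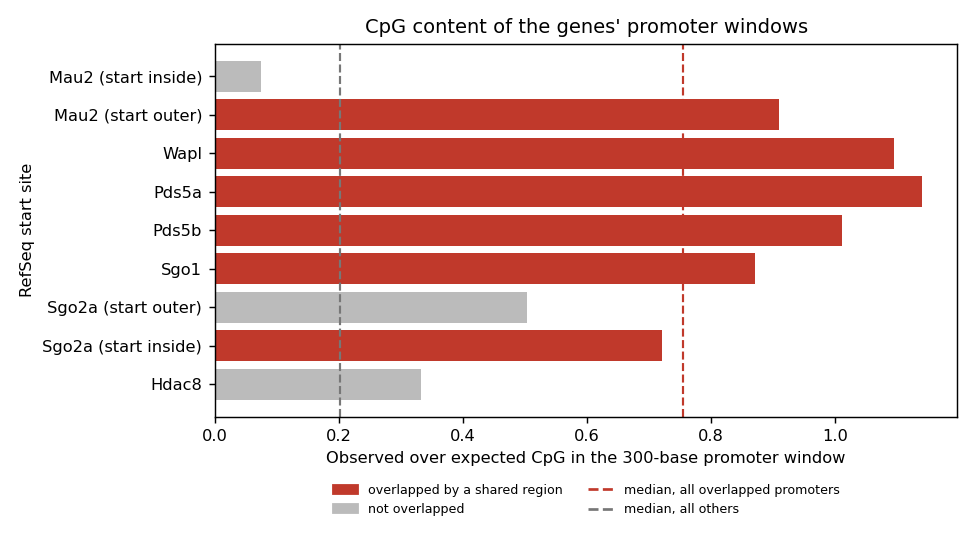
Observed over expected CpG in the 300-base window of each RefSeq start site, in red where a shared region overlapped it and in grey where none did. Dashed lines are the medians over all overlapped promoters (0.755) and all others (0.202). The 6 red bars run between 0.721 and 1.14 and the 3 grey bars between 0.0739 and 0.503. The grey Hdac8 window was overlapped by a weak peak of each library, but these peaks did not overlap each other.

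CpG content split the windows in the same way. Observed over expected CpG was at least 0.721 in each of the 6 overlapped windows and at most 0.503 in the 3 others. The Hdac8 window, among the 3, counted as not overlapped because the weak peak of each library there was not shared. Over all promoters the median was 0.755 in the 14735 with a shared region and 0.202 in the 18116 without. The 9 windows thus followed the pattern of promoters in general.

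Internal sites away from both gene ends were found in 7 of 10 genes, all but Mau2, Wapl and Esco2, against 42.1% of protein-coding genes. The members are long, with a median of 59981 bp against 17169 bp over all genes. Among the 11805 genes at least as long as Esco2, the shortest member, 65.7% had such a site, near the members' share. That set has only a lower limit on length, so genes matched to the members' own lengths were not compared. The number of internal sites was 12 at Nipbl, 4 at Hdac8, 3 at Pds5a, 2 each at Pds5b and Sgo2a, and 1 each at Esco1 and Sgo1. The Sgo1 site and 1 of the 2 Sgo2a sites were the regions over RefSeq start sites inside the model. Nipbl and Esco1 had no start site given, so their internal sites could not be checked in this way.

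**Figure D3:**
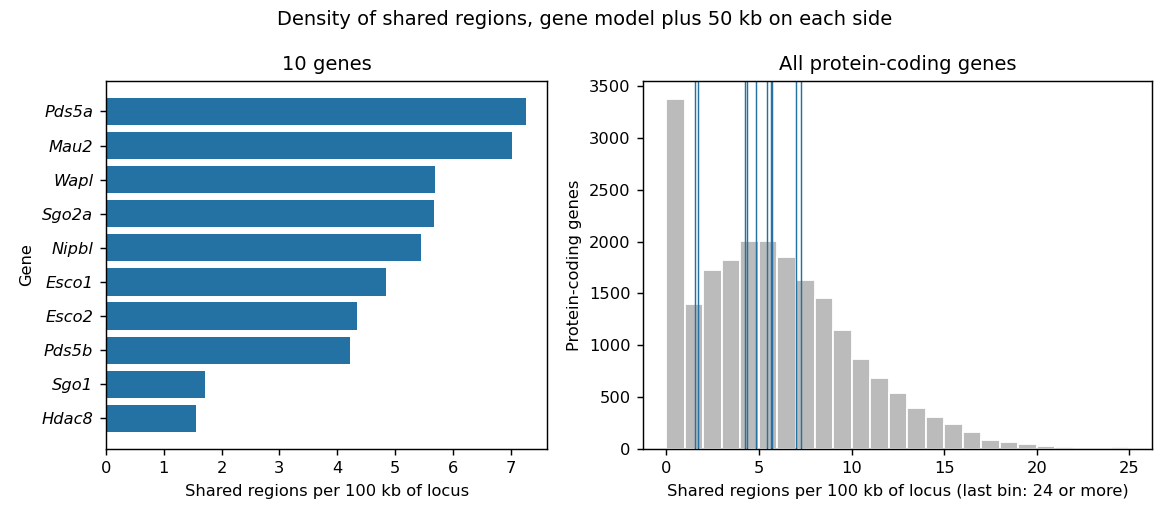
Shared regions per 100 kb of locus, as bars for the 10 genes at left and as a histogram over all protein-coding genes at right, where vertical lines mark the 10 genes. The members run between 1.56 and 7.27, inside the bulk of the distribution.

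Per length, the 10 loci were ordinary. The median was 5.15 shared regions per 100 kb in the 10 loci, against 5.35 over all protein-coding genes, and 5 of the 10 were above the middle of that distribution. Pds5a had 7.27 (percentile 66.6) and Mau2 7.02 (percentile 64.9), but Pds5a had 6.75 with the pair of a common partner counted once. By the peaks of each library alone, a calculation added after the data were seen, the highest value was that of Mau2 in replicate 1, 10.9 per 100 kb, and that of Wapl in replicate 2, 9.11, so the order among the dense loci was not stable. Sgo1 (1.72, percentile 18.3) and Hdac8 (1.56, percentile 17.3) had the lowest values, as they also did in each library alone. The mean percentile of the strongest region had a median of 92.7 in the 10 loci and 92.5 over all genes with a region.

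The libraries agreed on the members' sites about as often as elsewhere. In the 10 loci, 85 of 114 replicate 1 peaks overlapped a replicate 2 peak (74.6%, 95% Wilson interval 65.9 to 81.7), against 78.0% of all replicate 1 peaks. In replicate 2, 85 of 104 did (81.7%, interval 73.2 to 88.0), against 84.9% of all. The 29 peaks of replicate 1 alone held a median of 15 tags and the 19 of replicate 2 alone held 26. The highest of them, of 13.5-fold in replicate 1 in the flank of Wapl and 13.2-fold in replicate 2 in the flank of Pds5b, were below most start sites. Of the 85 shared regions, 47 had more tags in replicate 2, 34 had more in replicate 1 and 4 had the same number, and 51.1% of all shared regions had more in replicate 2.

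**Figure D4:**
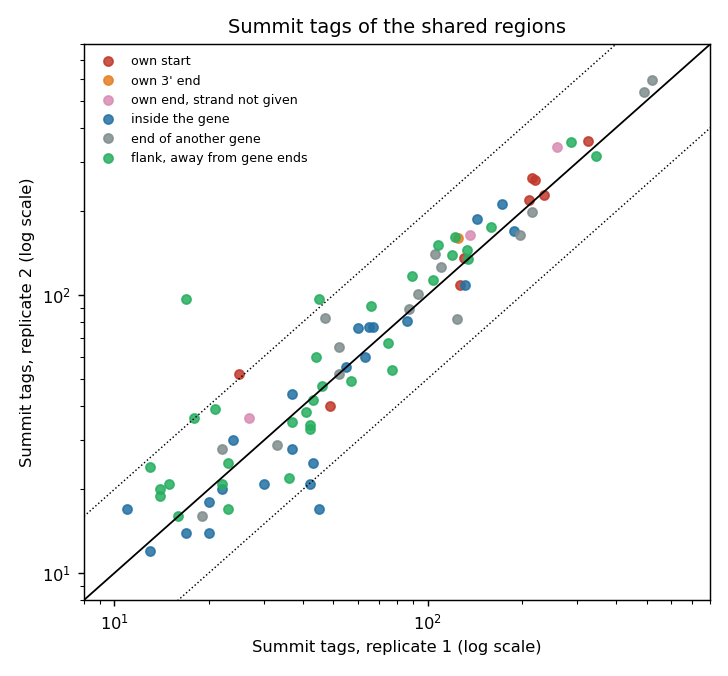
Summit tags of the 85 shared regions in replicate 1 and replicate 2 on log axes, coloured by position; the solid line marks equal tags and the dotted lines a ratio of 2. All but 4 regions lie on or within the dotted lines.

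The tag ratio between the libraries exceeded 2 in 4 regions (4.71%), against 8.07% of all shared regions. Of these, 3 were in the Pds5a locus. At chr5:65561213-65561853, replicate 1 had 45 tags and replicate 2 had 97. Another replicate 1 peak, of 17 tags, overlapped the same replicate 2 peak and counted as a region of its own. At chr5:65698463-65698754, 227 bp upstream of Pds5a, the libraries had 25 and 52 tags. The remaining 1 was the internal Sgo2a region with distant summits. None of the start sites covered by a region was among them.

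Other genes of the cohesin pathway were mostly accessible at their starts as well. Of 32 subunit, regulator and protector genes, 29 had a shared region at the model's 5′ end, or at either end where no strand was given, against 62.5% and 67.2% of all such genes. By RefSeq start sites the count was 21 of the 22 in the promoter table, against 65.9%. Incenp, a subunit of the centromeric kinase complex, was the strongest with 28.5-fold and 31.0-fold. The lowest with a region, by mean percentile, was Stag3, with 6.27-fold and 6.72-fold. No region was found there at Rad21, Pttg1 or Meikin, although Pttg1, which encodes securin, had one at a RefSeq start site. Rad21 and Meikin had no strand or start site given, so only the ends of their models were checked. Rad21l, which encodes a meiotic kleisin, had a region at its model's 5′ end, with 17.7-fold and 17.4-fold, and none at a RefSeq start site. Which exons the Stag3 KO lacks is not stated in the labels, and a peak at its start does not check the knockout.

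As a check of the cell type, all 10 germ cell and spermatogonial genes examined had a shared region at their start or, with no strand, at an end, against 62.5% and 67.2% of all genes. They ran from Dnd1, with 26.2-fold and 24.5-fold, to Nanos2, with 4.08-fold and 2.79-fold. Of 6 testis somatic genes, Sox9, Amh, Wt1 and Cyp17a1 had one and Gata4 and Star had none, a share near that of all genes. Of 4 fibroblast genes, Col1a1 had one, with 14.1-fold and 15.4-fold, and Col3a1, Dcn and Pdgfra had none. Of 4 endothelial and blood genes, Spi1 had one, with 21.5-fold and 21.1-fold, and Pecam1, Cdh5 and Ptprc had none. An accessible gene end does not show expression, and the share of other cells in the sorted samples was not tested. Sequencing depth is unknown from these sources, and the number of tags under each summit was recovered from the deposited values, with medians of 40 and 41 over the 107331 and 98986 peaks.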

How the data were processed

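ATAC-seq peak lists of 2 libraries of Stag3 KO GSCs were used, 1 list per library, so replicates had not been pooled. The submitters' processing notes name MACS2 2.1.1, deepTools 3.5.0, bedtools 2.29.2, Bowtie2 2.3.4.1, Trim Galore and Picard 2.18.23, and as builds mm10 and GRCm38.p3. Tool settings, Tn5 offset correction and duplicate handling are not given in the sources used here; they affect which sites pass as peaks and where summits fall. Each peak had a fold enrichment (a ratio over local background), a −log10 p-value, a −log10 q-value, a summit position and a score, as the authors deposited them; the score was not used.

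Summit tags were recovered as the whole number that fits both the fold, (tags + 1)/(background + 1), and the Poisson tail given as p-value. A unique solution existed for 100% of peaks, within 1e-05 of the value plus 0.0001 on the −log10 scale. Tags are not independent molecules, and intervals cover counting error only. Percentiles rank fold within a library. Where a replicate 1 peak overlapped several replicate 2 peaks, the largest overlap made the shared region, which was placed by the mean of both summits. Gene models and promoter windows were RefSeq's for GRCm38.p6 (patch releases and mm10 keep 1 set of chromosome coordinates); 7 of the 10 genes had a promoter entry, which gave strand and start sites. A region was at a gene end when any part of it lay within 1000 bp.

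There was 1 group and no control, so no test was run: counts and medians stand beside the same over all protein-coding genes or all peaks. The members, lists, motifs and windows were chosen with earlier results of these data known. Named were all members, the 3 regions of highest mean percentile per member, genes at whose ends regions lay, and pathway genes with no start region or the highest or lowest; further sites were named after their values were seen. Alternatives were stricter peaks, stricter overlap, each library alone, other reaches and windows, merged regions and RefSeq start sites. Scripts in Python 3.11.15 with numpy 2.4.6, pandas 2.3.3 and scipy 1.17.1 were tested on simulated data.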

Additional observations from a re-analysis of the deposited data

How the results depend on the processing

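The number of genes with a region at the start, or at an end where no strand was given, was 8. It varied between 6, with a window of 500 bp, and 10, with one of 2500 bp. The number with an internal region was 7 and varied between 5 and 8. When each library was cut to its 50000 highest-fold peaks, the 10 loci held 38 shared regions in place of 85, and the median density was 2.31 per 100 kb in place of 5.15; by construction this keeps the stronger sites. A reach of 100 kb gave 147 regions, 21.1% of them inside the genes and a density of 4.74. A reach of 25 kb gave 52.5% inside, a density of 4.72 and a median strongest fold of 24.03 in place of 25.2. The share inside the genes was 35.0% with −log10 q of at least 5 and 38.8% when any overlap counted, against 36.5%. With 1 library left out, all peaks of the other counted, shared or not, so higher counts and densities follow largely from the definition. Ranges were then 104 to 114 regions, 8 to 9 genes with a start region, 8 with an internal one and 35.96% to 36.5% inside. The strongest fold was 25.2 to 26.6 and the density 5.86 to 6.31. The shares found again, 74.6% and 81.7%, were those of each library in the main calculation and not a recalculation. Of 70 recalculated counts per locus, 46 stayed within 1.5 times; with 1 library left out, those of Mau2, Wapl and Sgo1 did not. No paired analysis was possible because there was 1 group. Weak sites rest on few tags, from 11 upward, which limits what low-fold regions can show.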
